A study of Mus musculus with 6 samples.

Results

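The histone cluster genes are the protein-coding genes for the replication-dependent histones, which package newly made DNA. They were taken as every row of the deposited gene table with the biotype protein_coding and a name that starts with Hist1h, Hist2h, Hist3h or Hist4h, which gave 67 of 54532 genes. No measured value enters that rule, but the family was proposed with the TBZ results of these data known. The linker histone gene Hist1h1c had stood among the genes that rose. The counts, medians, sums and shares over the members, with their p-values, therefore describe these libraries and support nothing on their own. By name, 6 members encode linker histones (H1) and 61 encode core histones, of which 18 are H2A, 18 H2B, 12 H3 and 13 H4 genes. Chromosome 13 holds 54 of them, chromosome 3 holds 10, chromosome 11 holds 2 and chromosome 6 holds 1.

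The libraries come from mouse pancreatic buds that were taken at E12.5 and cultured for 2 days, in medium with 10% fetal bovine serum and 0.1% DMSO. Buds of the TBZ group received 0.1 µM tetrabenazine, an inhibitor of the vesicular monoamine transporter VMAT2, throughout the culture (3 libraries), and control buds received DMSO only (3 libraries). The question behind the study was what the VMAT2-monoamine pathway does in pancreatic development. The labels give no strain, sex or litter and do not say whether replicates are separate cultures, so the p-values rest on a spread among libraries that may be technical. The tissue is a mixture of cell types, and in such bulk libraries a gene that is higher per cell and a larger share of cells with that gene cannot be told apart.

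Core histones form the nucleosome, and linker histones bind the DNA where it enters and leaves it. Genes of this kind are transcribed mainly in S phase, and most of their mRNAs end in a conserved stem-loop bound by SLBP in place of a poly-A tail. Some members can also be cut further downstream and polyadenylated, which is known above all from cells that have left the cycle, and libraries made with poly-T beads, as here, favour such transcripts.

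The stem-loop was found after the stop codon in 45 of the 67 members, in GENCODE M21 transcripts (mm10). Of the 21699 protein-coding genes with an annotated stop codon, members included, 59 (0.272%) had it, and only 14 of these were not members. Many models of the other members end at or close to the stop codon, among them that of Hist1h1b with 0 bases after it. In such models a stem-loop cannot be found, so a missing match does not show that the gene lacks it. The stem-loop is shown for the linker gene that rose and for 3 core genes described below. It is also shown for the other linker genes with it that passed the filter on low counts. Its 2 stem arms are in capitals and the loop in lower case.
Hist1h1c (chr13:23739512-23739527, plus strand): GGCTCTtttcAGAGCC
Hist1h1d (chr13:23555787-23555802, plus strand): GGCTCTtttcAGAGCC
Hist1h1e (chr13:23621782-23621797, minus strand): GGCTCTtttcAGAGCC
Hist3h2ba (chr11:58949349-58949364, plus strand): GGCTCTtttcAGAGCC
Hist1h4i (chr13:22040966-22040981, minus strand): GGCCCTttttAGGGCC
Hist1h2bg (chr13:23571843-23571858, plus strand): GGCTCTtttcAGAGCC
The same 16 bases stand in Hist1h1c, Hist1h1d, Hist1h1e, Hist3h2ba and Hist1h2bg, while Hist1h4i differs in both stem arms and in the loop. In Hist1h1c the stem-loop lies 24 bases after the stop codon and the gene model goes on for 840 bases past it. The models of Hist1h1d and Hist1h1e run 4884 and 1153 bases past theirs.

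The promoters of the linker genes with the largest log2 fold changes, from 250 bases before to 50 after the RefSeq start (GRCm38.p6), show which elements they share. Capitals mark the H1 box AAACACA, a known element of linker histone promoters, the CCAAT box and TATAAA, each searched on both strands, so that ATTGG and TTTATA are matches as well.
Hist1h1c (chr13:23738557-23738856, plus strand): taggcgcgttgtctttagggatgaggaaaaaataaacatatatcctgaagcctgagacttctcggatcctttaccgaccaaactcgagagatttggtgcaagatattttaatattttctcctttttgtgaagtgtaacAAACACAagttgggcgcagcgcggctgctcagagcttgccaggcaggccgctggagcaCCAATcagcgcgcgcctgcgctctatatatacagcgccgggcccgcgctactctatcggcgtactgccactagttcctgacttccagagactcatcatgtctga
Hist1h1d (chr13:23554782-23555081, plus strand): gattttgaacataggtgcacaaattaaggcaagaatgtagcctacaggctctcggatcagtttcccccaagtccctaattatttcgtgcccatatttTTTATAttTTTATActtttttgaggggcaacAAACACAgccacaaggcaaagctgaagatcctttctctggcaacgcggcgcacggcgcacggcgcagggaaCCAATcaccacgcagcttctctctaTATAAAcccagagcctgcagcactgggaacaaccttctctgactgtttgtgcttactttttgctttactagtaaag
Hist1h1e (chr13:23622509-23622808, minus strand): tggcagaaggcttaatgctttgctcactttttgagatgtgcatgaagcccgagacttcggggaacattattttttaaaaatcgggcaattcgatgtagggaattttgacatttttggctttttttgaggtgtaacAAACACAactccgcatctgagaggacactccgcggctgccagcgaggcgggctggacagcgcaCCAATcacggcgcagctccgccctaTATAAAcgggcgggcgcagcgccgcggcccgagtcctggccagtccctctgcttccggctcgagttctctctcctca
Each of the 3 has the H1 box upstream of CCAAT, and TATAAA is absent from the window of Hist1h1c. RefSeq promoters were found for 62 members. The H1 box was in 5 of the 6 linker promoters, all but that of Hist1h1a, in 14.5% of all member promoters and in 7.18% of all 32851 promoters. CCAAT was in all 6 linker promoters and in 85.5% of member promoters against 37.4% of all promoters, and only 3 of 12 H4 promoters had it. TATAAA was in 56.5% of member promoters and in 13.6% of all promoters. The octamer ATTTGCAT, known from H2B promoters, was in 6 of 16 H2B and 7 of 18 H2A promoters, in no linker promoter and in 1.74% of all promoters. A match is a run of letters, not a shown binding site.

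The libraries held 40.8, 41.0 and 35.8 megareads in TBZ replicates 1 to 3 and 47.0, 50.6 and 41.0 megareads in control replicates 1 to 3. All pairs of libraries had Pearson correlations of log2 CPM between 0.988 and 0.994. Summed stomach and oesophagus markers, from tissue that lies beside the bud, varied from 88.3 to 145 CPM in TBZ and from 120 to 221 CPM in control libraries. The test covered 18226 genes, and 34 of these (0.187%) changed at an edgeR adjusted p under 0.05. The acinar marker genes, which label the enzyme-making cells, were the only one of the 9 cell type lists with members called by edgeR (8 of 19 tested, all higher in TBZ).

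Histone transcripts were a small part of these poly-A libraries, and a few members carried most of them. Members summed to 122, 128 and 139 CPM (counts scaled by TMM library size) in TBZ replicates 1 to 3 and to 97.7, 98.0 and 95.5 CPM in control replicates 1 to 3. Only 7 members averaged at least 100 reads per library, 37 averaged at least 10, and 8 had no read in any library. By level per length, Hist1h1c came first with a mean of 22.7 FPKM (fragments scaled by the deposited gene length and by library size) over the 6 libraries. The H2B genes Hist3h2ba and Hist1h2bc followed at 18.7 and 17.2 FPKM, then the H4 gene Hist1h4i at 9.61, the H3 gene Hist1h3c at 4.08 and the H2B gene Hist2h2be at 3.69 FPKM. The H2A genes Hist1h2ae (2.18 FPKM) and Hist1h2ao (2.14) stood next, and 19 members in all reached a mean of 1 FPKM. In control libraries Hist3h2ba ranged from 17.2 to 18.5 FPKM, above Hist1h2bc (15.4 to 16.6) and Hist1h1c (15.1 to 16.1), and the ranges of Hist1h2bc and Hist1h1c overlapped. In TBZ libraries Hist1h1c ranged from 26.7 to 33.9 FPKM and lay above every other member.

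**Figure D1:**
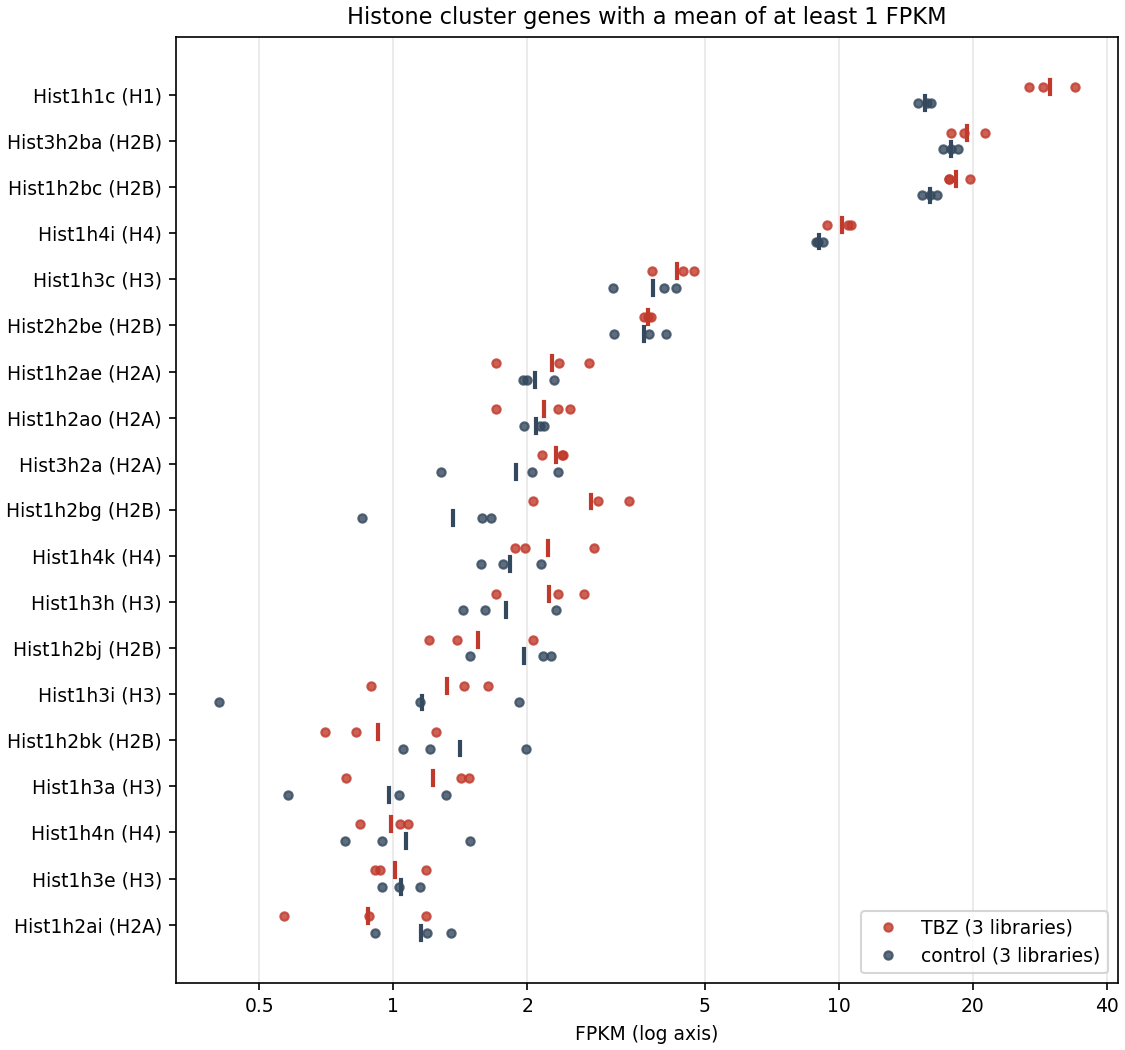
FPKM of each of the 19 histone cluster genes with a mean of at least 1 FPKM, on a log axis, with 1 point per library and a vertical line at the group mean, TBZ above control for each gene. The TBZ points of Hist1h1c lie between 26.7 and 33.9 FPKM, right of its control points at 15.1 to 16.1 FPKM, while the groups overlap for most other genes.

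The most abundant members had gene models that go on past the usual histone end. A poly-A signal, AATAAA or ATTAAA, was present after the stem-loop, or after the stop codon where no stem-loop was found, in 22 of the 67 models. Either hexamer stands somewhere after the stop codon in 86.9% of the 21699 protein-coding genes. These 22 members held between 70.8% and 76.0% of the summed histone FPKM of a library, and between 83.5% and 87.4% of its histone counts. They include 5 of the 6 highest members, Hist1h1c, Hist3h2ba, Hist1h2bc, Hist1h4i and Hist2h2be, and Hist1h3c is the sixth. The presence of a signal did not go with a high level throughout: the 22 members had a median of 0.420 FPKM, with a range of 0 to 22.7 FPKM, and the other 45 had a median of 0.382 FPKM and reached 4.08 FPKM. A model end is also a product of annotation, and in a short model reads past its end are not counted.

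**Figure D2:**
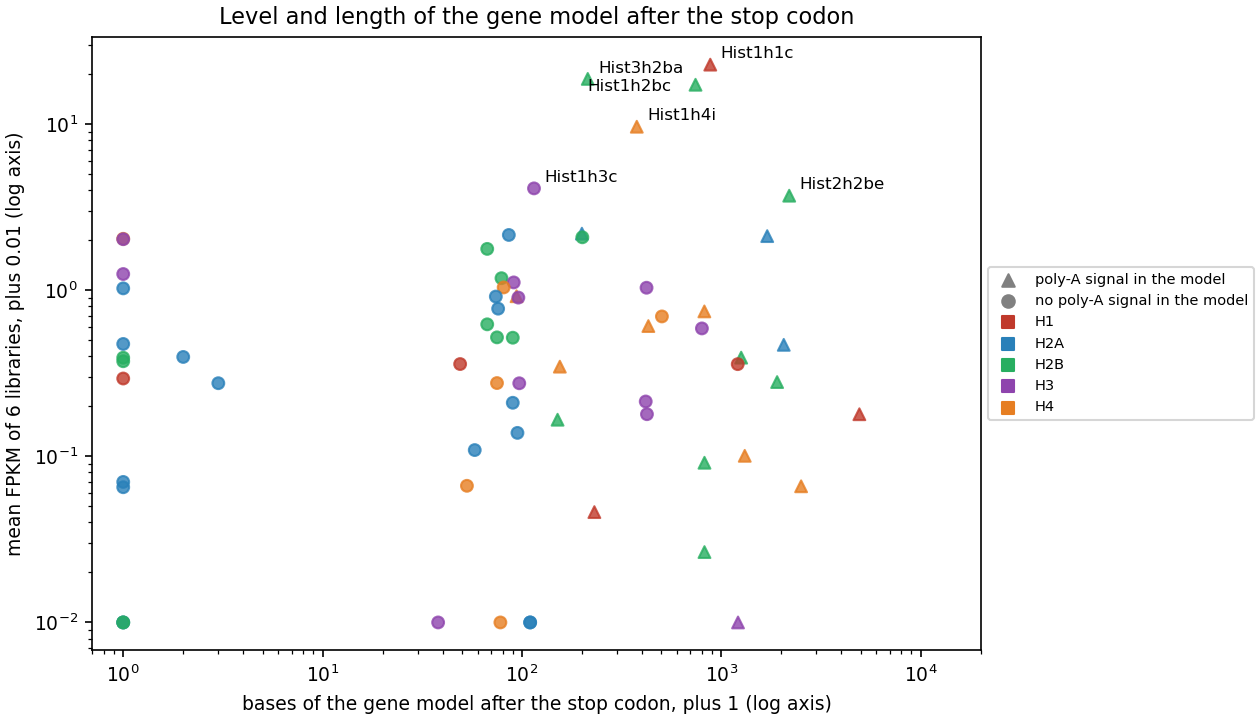
Mean FPKM over the 6 libraries (plus 0.01) against the number of bases of the gene model after the stop codon (plus 1), both on log axes, for the 67 histone cluster genes, coloured by histone class. Triangles are models with a poly-A signal, and 5 of the 6 genes at 3.69 FPKM or more are triangles.

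Near-identical copies, and other genes annotated over the same place, limit what single members can show. With both kinds counted, the median member had 37.1% of the 100-base stretches of its transcript in a transcript of another gene, 28 members had over 50% and 10 had over 90%, while 6 had none. All 13 H4 genes encode the same protein, as a translation of their coding sequences showed, and 4 pairs of members have identical coding sequences, among them the pair Hist1h2ao and Hist1h2ap. Of the 8 members without a read, 5 share every such stretch with another gene, among them the pair Hist2h2aa1 and Hist2h2aa2, which have identical coding sequences and also overlap antisense genes. Whether reads of those genes were left unassigned was not tested. Hist1h1c shared 5.07% of its stretches and Hist1h1d 0.792%, which is a share of sequence and not of reads. Hist1h1e, whose exons overlap those of Hist1h2be on the same strand, shared 24.7%, and Hist1h2bg shared 44.9%.

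Among the linker histone genes, Hist1h1c rose in TBZ buds, and Hist1h1d and Hist1h1e were higher in each TBZ library without passing the test. Hist1h1c (chr13:23738808-23740367, mm10, plus strand) encodes one of the widely expressed somatic H1 subtypes. It had 1687, 1836 and 1896 reads in TBZ replicates 1 to 3 and 1156, 1277 and 985 reads in control replicates 1 to 3. Scaled for depth this is 41.8, 45.1 and 53.1 CPM in TBZ and 24.7, 25.2 and 23.6 CPM in control libraries. The groups do not overlap, TBZ replicate 3 is the highest library, and the controls lie close together. Its mean was 46.7 ± 5.84 CPM in TBZ and 24.5 ± 0.821 CPM in control libraries (SD, n = 3 each). edgeR gave log2 0.93 ± 0.08 (SE) for TBZ over control, adjusted p = 0.00580. DESeq2 gave an adjusted p of 1.24e-19, and the authors' deposited table gives 1.23e-19, which nearly repeats the DESeq2 value and is no separate support.

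Hist1h1d and Hist1h1e encode other somatic H1 subtypes and were scarce. Hist1h1d (chr13:23553262-23560686, plus strand) had 67, 62 and 72 reads in TBZ and 40, 30 and 38 reads in control replicates 1 to 3. Its CPM were 1.66, 1.52 and 2.02 in TBZ and 0.854, 0.592 and 0.910 in control libraries. The groups do not overlap, and edgeR gave log2 1.14 ± 0.24 (SE), adjusted p = 0.128. DESeq2 (adjusted p = 0.0258) and edgeR with no filter on low counts (0.00919) put it past the threshold. The authors' deposited table, which nearly repeats the DESeq2 values, gives 0.0258 as well and is no separate support. Its deposited model is 7425 bases long, which sets its FPKM low, at 0.233 ± 0.0340 in TBZ and 0.105 ± 0.0228 in control libraries (SD, n = 3 each). Only 666 of these bases are coding, and 4931 lie after the stop codon. Counts per gene do not show where along the model its reads lie, so they may not all come from the histone mRNA.

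Hist1h1e (chr13:23620629-23622558, minus strand) had 40, 27 and 33 reads in TBZ and 25, 28 and 16 reads in control replicates 1 to 3. Its 0.991, 0.663 and 0.925 CPM in TBZ libraries lay above 0.534, 0.552 and 0.383 CPM in control libraries, with TBZ replicate 2 nearest to the controls. edgeR gave log2 0.80 ± 0.28 (SE), adjusted p = 0.404. The overlapping gene Hist1h2be had 1.34, 1.28 and 1.43 CPM in TBZ and 1.17, 0.848 and 1.15 CPM in control libraries, and reads in the shared exons may be assigned to either or to neither.

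The remaining linker genes were close to the limit of detection. Hist1h1a, an H1 subtype of dividing cells, had 11, 7 and 13 reads in TBZ and 12, 14 and 9 reads in control libraries (edgeR log2 0.09 ± 0.39 SE, adjusted p = 0.963). Its direction turned without TBZ replicate 3 (-0.17). Hist1h1b, another subtype of dividing cells, did not pass the filter, with 5, 10 and 14 reads in TBZ and 8, 11 and 5 in control libraries. Hist1h1t, the testis subtype, had at most 1 read in a TBZ and at most 4 in a control library. Neither gene was tested with edgeR after the filter.

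Summed over the 6 linker genes, TBZ replicates 1 to 3 had 44.9, 47.7 and 56.9 CPM and control replicates 1 to 3 had 26.5, 26.9 and 25.2 CPM. The log2 difference was 0.92 (two-sided exact permutation test, p = 0.1, which 3 against 3 libraries cannot go below). Hist1h1c dominates this sum. Without it the other 5 linker genes had 3.07, 2.60 and 3.73 CPM in TBZ and 1.86, 1.72 and 1.65 CPM in control libraries, a log2 difference of 0.83 (two-sided exact permutation p = 0.1). The proteins of Hist1h1c, Hist1h1d and Hist1h1e have 212, 221 and 219 residues by translation, and Hist1h1c is identical to Hist1h1d at 85.4% and to Hist1h1e at 85.8% of aligned residues, against 50.5% to Hist1h1t.

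**Figure D3:**
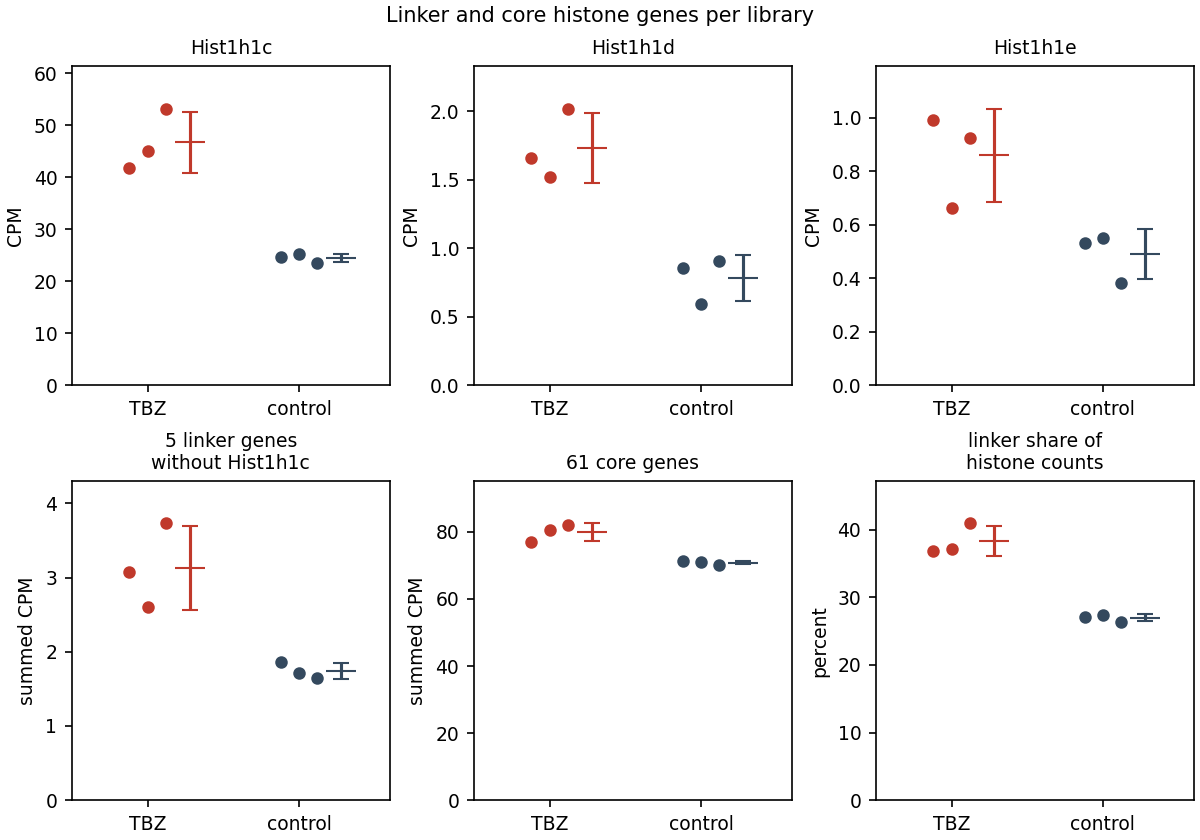
CPM of Hist1h1c, Hist1h1d and Hist1h1e, summed CPM of the 5 other linker genes and of the 61 core genes, and the linker share of the histone counts, with 1 point per library and the mean with SD beside the points (n = 3 per group), TBZ left of control. In each panel every TBZ point lies above every control point, with linker shares of 36.8% to 40.9% in TBZ and 26.4% to 27.4% in control libraries.

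Core histone genes as a whole were slightly higher in TBZ libraries, by far less than the linker genes. The 61 core genes summed to 76.9, 80.4 and 82.2 CPM in TBZ replicates 1 to 3 and to 71.2, 71.1 and 70.3 CPM in control replicates 1 to 3. The groups do not overlap, and the log2 difference was 0.17 (two-sided exact permutation test over libraries, p = 0.1). Linker genes therefore took 36.8%, 37.2% and 40.9% of the histone counts in TBZ and 27.1%, 27.4% and 26.4% in control libraries, with 95% Wilson intervals of at most 1.37 percentage points to either side, which cover counting error only. The mean shares differ by 11.3 percentage points (two-sided exact permutation p = 0.1). Hist1h1c alone, whose rise led to the choice of the family, differed by 10.7 percentage points of the histone counts. The p-value of the share is therefore a description and no separate support. Without Hist1h1c the share differed by 1.37 percentage points. Counts are not scaled by gene length, and long models collect more of them. Of the summed histone FPKM, linker genes took 24.1%, 24.1% and 27.6% in TBZ and 16.9%, 17.3% and 16.4% in control replicates 1 to 3. The means of these shares per length differ by 8.35 percentage points.

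By class, the H2B genes summed to 47.7, 48.6 and 52.6 CPM in TBZ and 43.6, 45.5 and 44.3 CPM in control libraries, and made up most of the core sum. H4 genes averaged 11.5 ± 0.468 CPM in TBZ and 10.5 ± 0.467 CPM in control libraries (SD, n = 3 each). H3 genes had 7.88, 8.25 and 7.15 CPM in TBZ and 6.49, 6.23 and 6.99 CPM in control libraries. These 3 classes did not overlap between groups (two-sided exact permutation p = 0.1 each), while H2A genes did, at 10.3, 11.8 and 10.7 CPM in TBZ and 10.4, 9.49 and 8.33 CPM in control libraries (two-sided exact permutation p = 0.2).

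No core gene passed the edgeR test, whose adjusted p-values ran from 0.295 to 0.980 over 33 tested core genes. DESeq2, which gave an adjusted p to only 17 members, linker genes included, called 0 core genes as well. At an unadjusted edgeR p under 0.05 there were 2, Hist1h2bc and Hist1h2bg, both higher in TBZ. Of the 33 tested core genes, 25 were positive and 8 negative on the log2 scale (median 0.18, range -0.63 to 1.01). Taken with the 4 tested linker genes (median 0.86, all positive), 29 of 37 tested members were positive, where 50.1% of all tested genes were, and the median was 0.18 against 0.00 over all tested genes. The other 30 members did not pass the filter, averaged at most 8.83 reads per library and are not in these counts. At an adjusted p under 0.05, 1 member was higher in TBZ, where 0.154% of tested genes were called higher, and 0 were lower, where 0.0329% of tested genes were called lower. At an unadjusted p under 0.05, 5 members were called, all higher, where 5.08% of tested genes were called higher and 9.61% in either direction. DESeq2 called 2 of its 17 tested members higher, where 1.1% of its tested genes were higher, 0.336% lower and 1.43% either way. edgeR with no filter called 3 of 59 members higher, where 0.842% of genes were higher, 0.582% lower and 1.42% either way. Groups did not overlap, with TBZ higher, for 9 of the 37 members, where this held for 8.47% of all tested genes, and with TBZ lower for 0 members, where it held for 7.03%.

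**Figure D4:**
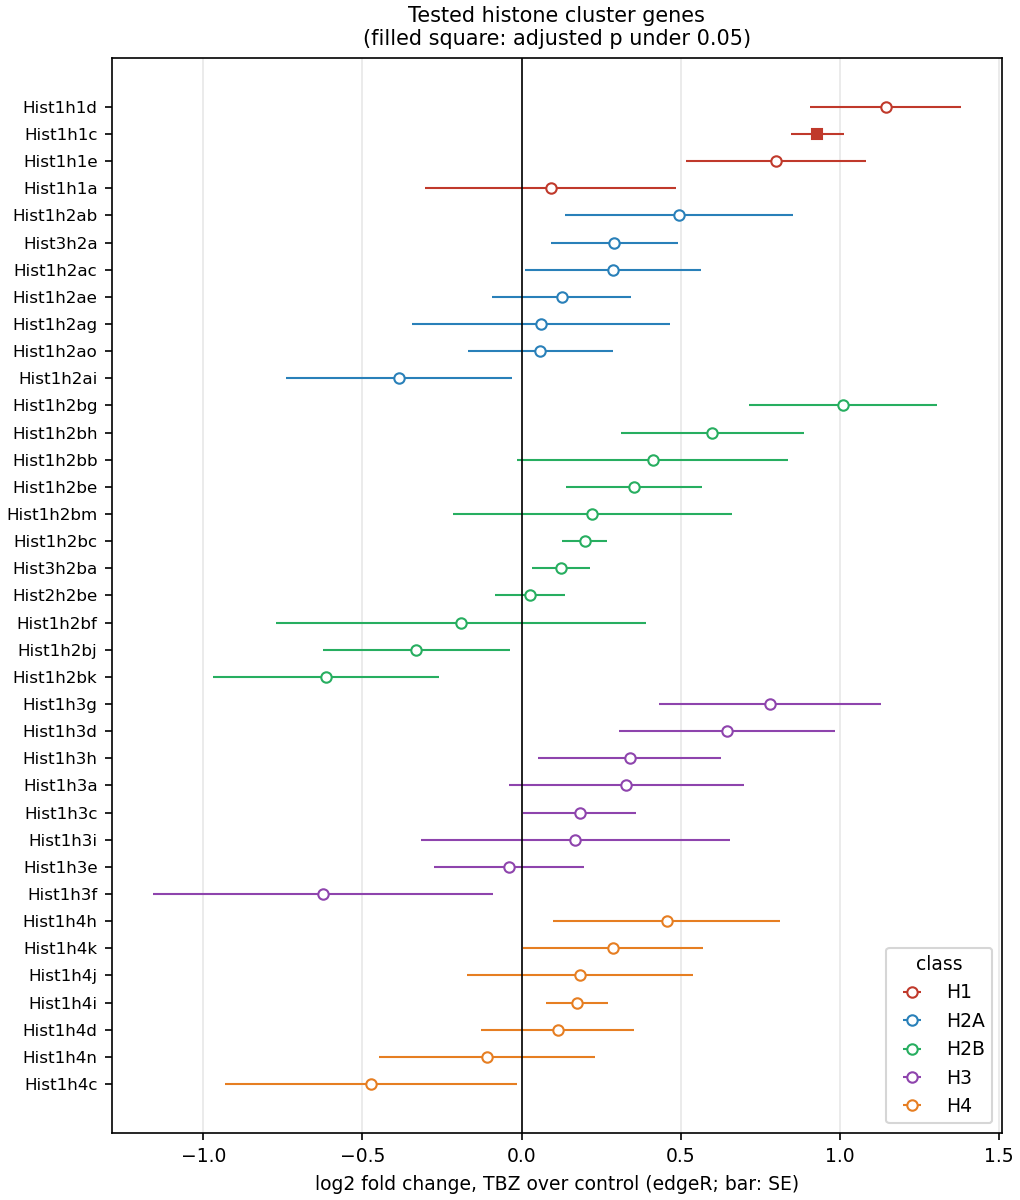
Log2 fold change of TBZ over control with its SE (edgeR) for the 37 tested histone cluster genes, grouped by class. The filled square, Hist1h1c at 0.93, is the gene with an adjusted p under 0.05, and open circles did not pass.

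Hist1h2bg, an H2B gene, had the largest log2 fold change of the 33 core genes that passed the filter on low counts. It had 72, 52 and 75 reads in TBZ and 46, 52 and 22 reads in control replicates 1 to 3, or 2.88, 2.06 and 3.38 FPKM in TBZ and 1.59, 1.65 and 0.849 FPKM in control libraries. The groups do not overlap once scaled for depth, and control replicate 3 is the lowest. edgeR gave log2 1.01 ± 0.30 (SE), adjusted p = 0.295, and 0.0382 with no filter on low counts. Hist1h2bg (chr13:23571396-23572013, plus strand) and the H2A gene Hist1h2ae (chr13:23570517-23571220, minus strand) lie head to head with 175 bases between them. Hist1h2ae had 1.66, 1.94 and 1.21 CPM in TBZ and 1.62, 1.38 and 1.41 CPM in control libraries, which overlap (edgeR log2 0.13 ± 0.22 SE, adjusted p = 0.891). The sign of Hist1h2ae turned without TBZ replicate 2 (-0.03).

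The abundant core genes moved by small amounts at most. Hist1h2bc had 20.5, 20.5 and 22.9 CPM in TBZ and 19.3, 17.9 and 18.6 CPM in control libraries (edgeR log2 0.20 ± 0.07 SE, adjusted p = 0.408). Hist1h4i had 6.86, 7.63 and 7.79 CPM in TBZ and 6.70, 6.57 and 6.49 CPM in control libraries (log2 0.17 ± 0.10 SE, edgeR adjusted p = 0.614). Neither gene overlapped between groups. Hist3h2ba overlapped, at 17.9, 19.1 and 21.3 FPKM in TBZ and 17.8, 18.5 and 17.2 FPKM in control libraries (log2 0.12 ± 0.09 SE, edgeR adjusted p = 0.709). Hist2h2be overlapped as well, at 9.79, 9.97 and 9.61 CPM in TBZ and 8.20, 10.7 and 9.86 CPM in control libraries (log2 0.03 ± 0.11 SE, edgeR adjusted p = 0.960).

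Hist1h3c, the most abundant H3 gene, stood at log2 0.18 ± 0.18 (SE, edgeR adjusted p = 0.785). Hist1h2ao, an H2A gene with an identical coding copy, stood at log2 0.06 ± 0.23 (SE, edgeR adjusted p = 0.959). Hist1h3g, a scarce H3 gene, had 20, 30 and 20 reads in TBZ and 20, 11 and 17 reads in control replicates 1 to 3, and its groups did not overlap once scaled for depth (log2 0.78 ± 0.35 SE, edgeR adjusted p = 0.525). No member with a mean of 1 FPKM in a group was lower in every TBZ library than in every control library. Among members only, the nearest to Hist1h1c on chromosome 13 are Hist1h3c, 4605 bases to its right, and Hist1h4c, 40353 bases to its left. Hist1h4c stood at log2 -0.47 (edgeR adjusted p = 0.785). Other genes between them were not looked at.

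No listed gene that acts on histone supply was called by edgeR, and the part of these genes in the linker result was not tested. In the list of histone mRNA processing and transcription factors, 6 of 16 tested members were positive and 10 negative on the log2 scale (median -0.01, range -0.14 to 0.12), and 0 passed the edgeR test (1 at an unadjusted p under 0.05). Slbp, which encodes the stem-loop binding protein, had 98.1 ± 4.34 CPM in TBZ and 98.3 ± 3.13 CPM in control libraries (SD, n = 3 each). Npat, the coactivator of histone transcription in S phase, averaged 64.3 CPM in TBZ and 65.9 CPM in control libraries (log2 -0.03 ± 0.05 SE, edgeR adjusted p = 0.872). The smallest p-values were those of Hinfp, a transcription factor of H4 genes (log2 -0.14), Nfya, a subunit of the factor that binds CCAAT (-0.08), and the cap-binding gene Ncbp1 (-0.06), with edgeR adjusted p of 0.456, 0.615 and 0.685.

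Histone chaperone genes had 5 positive and 9 negative log2 fold changes among 14 tested (median -0.01), none called, with Chaf1b of the replication-coupled assembly factor at -0.13, the import receptor gene Ipo4 at -0.08 and Chaf1a at 0.05. Genes listed as replication-independent histones, most of which have mRNAs with poly-A tails, had 7 positive and 4 negative among 11 tested (median 0.01), none called. Among these H1f0, the linker variant of resting cells, had 613 ± 16.2 CPM in TBZ and 583 ± 21.5 CPM in control libraries (SD, n = 3 each), and edgeR gave log2 0.07 ± 0.04 (SE), adjusted p = 0.628. The H3.3 gene H3f3b stood at 0.05 and the macroH2A gene H2afy2 at -0.12 on the same log2 scale.

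Genes of S phase and proliferation had 5 positive and 21 negative log2 fold changes among 26 tested (median -0.04, range -0.17 to 0.17), none called. Their sum was 3792, 4060 and 3886 CPM in TBZ and 3985, 3787 and 4043 CPM in control replicates 1 to 3, which overlap (two-sided exact permutation p = 1). Nearest to a call were the ribonucleotide reductase gene Rrm2 (log2 -0.13), the cyclin gene Ccne1 (-0.09) and the licensing gene Cdt1 (-0.17), with edgeR adjusted p of 0.532, 0.558 and 0.591. The S phase, chaperone and replication-independent histone lists had 0 members at an unadjusted edgeR p under 0.05, and DESeq2 called 0 members of these or of the processing list.

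**Figure D5:**
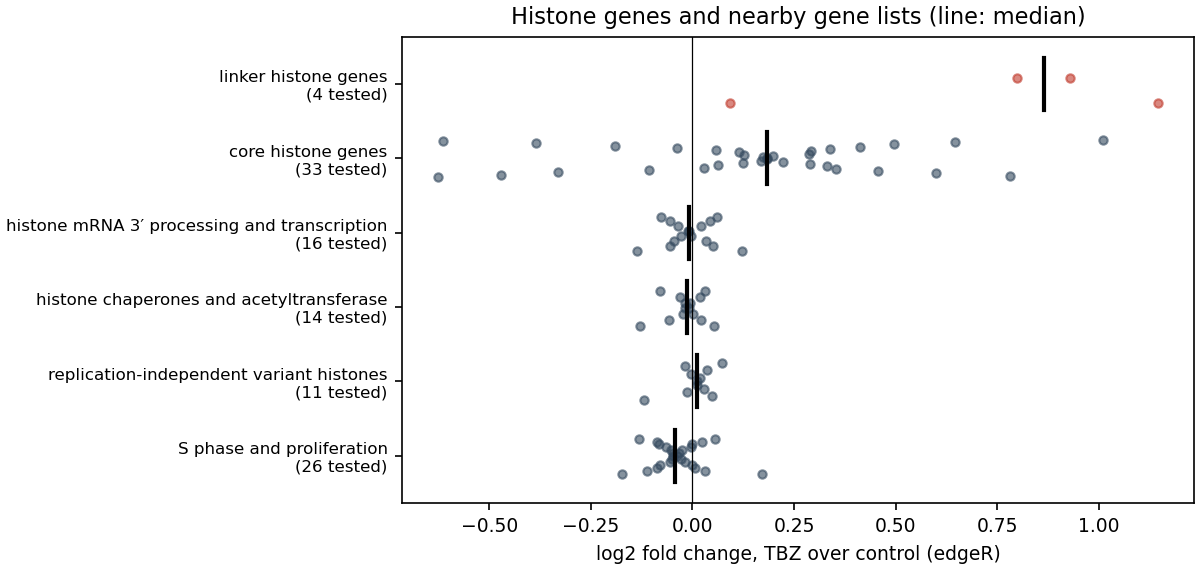
Log2 fold change of TBZ over control (edgeR) for each tested gene of the linker and core histones and of 4 related gene lists, with 1 point per gene and a line at the median. Linker genes have a median of 0.86 and core genes of 0.18, and the 4 lists lie between -0.04 and 0.01.

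Values that could move with histone reads in poly-A libraries are given beside these results. RNAs annotated as snRNA, snoRNA or scaRNA, most of which have no poly-A tail, summed to 36.3, 35.6 and 44.3 CPM in TBZ and 38.8, 40.6 and 49.3 CPM in control replicates 1 to 3 (two-sided exact permutation p = 0.5). Of a list of 10 RNAs without a tail, 6 were at 0 in every library, Rmrp and Rpph1 among them, and the list summed to between 1.84 and 2.91 CPM in TBZ and between 2.08 and 2.62 CPM in control libraries. Acinar markers were also higher in TBZ libraries, and all 19 tested were positive on the log2 scale, at a median of 0.58. The list summed to 10406, 8612 and 9637 CPM in TBZ and 6419, 6788 and 5717 CPM in control replicates 1 to 3. The highest TBZ library was replicate 1 for the acinar sum and replicate 3 for Hist1h1c, and the part of acinar cells in the linker result was not tested.

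Of the other marker lists, endocrine genes had 13 of 15 positive log2 fold changes (median 0.23), general epithelium 18 of 23 (0.08), endothelial cells 11 of 12 (0.07) and mesenchyme 8 of 16 (0.01). Macrophage genes had 4 of 12 (median -0.03), neurons and glia 1 of 12 (-0.07), erythroid cells 5 of 13 (-0.11) and stomach and oesophagus 5 of 14 (-0.30), and none of these 8 lists had a member called by edgeR. At an unadjusted edgeR p under 0.05 they had 27 of their 126 entries, tested or not, where 9.61% of all tested genes were called. DESeq2 called 3, Cdh1, Neurog3 and Tff2, all higher in TBZ, where 1.43% of its tested genes were called. The acinar list had 15 of 21 entries at an unadjusted edgeR p under 0.05 and 12 called by DESeq2. The endothelial sum also separated the groups, at 623, 585 and 573 CPM in TBZ and 563, 565 and 562 CPM in control replicates 1 to 3 (two-sided exact permutation p = 0.1), and its part in the linker result was not tested. Erythroid markers summed to 553 to 628 CPM in TBZ and 599 to 657 CPM in control libraries. Without control replicate 3, which had the highest stomach sum, Hist1h1c stood at log2 0.91, edgeR adjusted p = 0.0108. The stomach sums of the other libraries still differed, and the part of that tissue in the linker result was not tested.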

How the data were processed

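Poly-T beads selected the RNA, an NEBNext Ultra kit made the libraries, and sequencing was paired, per the labels' protocols. The submitters' processing notes name STAR, HTSeq and mm10, with versions, strand and multi-mapping settings not given in the sources used here, so reads of near-identical or overlapping genes cannot be placed with certainty. The deposited read counts are whole numbers with no normalization. The deposited FPKM were computed by the authors from gene length and library size. The deposited signal columns are the authors' group means of scaled counts and support no result here. The log2 fold changes, p-values and adjusted p-values of the authors' deposited table have no tool named here. They nearly match those of DESeq2, with 222 changed genes in both. All 67 members had the same start and end in GENCODE M21.

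Counts were tested with the edgeR quasi-likelihood test (TMM, filterByExpr, Benjamini-Hochberg adjustment over 18226 genes, threshold 0.05). The SE of a log2 fold change is its size over the square root of the F statistic. CPM use TMM-scaled library totals. For sums, exact permutation tests (two-sided) over the 6 libraries were used. Alternatives left out each library, blocked on replicate number, dropped the filter, used RLE factors, or replaced edgeR by DESeq2 or by limma on log2(FPKM + 0.5), with other pseudocounts. Sums were also made from library totals, from FPKM, and without identical copies or Hist1h1c. The tests were tried on simulated data with 200 changed genes. DESeq2 1.42.0, limma 3.58.1 and edgeR 4.0.16 ran in R 4.3.3.

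The members and gene lists were chosen with earlier results of these data known. Named were all linker genes, members called with edgeR or DESeq2, the 8 with the highest mean FPKM, up to 6 rises and 6 falls with non-overlapping groups and a mean of at least 1 FPKM in a group, and from the 4 related lists Slbp, Npat and the 3 genes with the smallest p. Hist1h2be, Hist1h4c, Hist1h2ap, Hist2h2aa1, Hist2h2aa2, Rmrp, Rpph1, Cdh1, Neurog3 and Tff2 were named after their values were seen. Shared stretches were counted over both strands of all M21 transcripts.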

Additional observations from a re-analysis of the deposited data

How the results depend on the processing

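The log2 fold change of Hist1h1c stayed positive and past the threshold in all 13 alternatives, at 0.83 to 1.00 with edgeR adjusted p from 0.0108 to 0.0444 when each library was left out in turn. The count of changed genes, 34 in all, was 222 with DESeq2, 445 with no filter, 5 with the replicate block, 14, 13 and 14 with limma on FPKM at pseudocounts of 0.5, 0.1 and 1, and 5 to 36 with a library left out (11 without TBZ replicate 1, 5 without TBZ replicate 3 and 13 without control replicate 2). Members called higher numbered 2 of 17 with DESeq2 and 3 of 59 with no filter, where Hist1h1d and, with no filter, Hist1h2bg joined Hist1h1c. There was 1 in every fit with a library left out. With a library left out, Hist1h1a ran from -0.17 to 0.34, Hist2h2be from -0.077 to 0.12, Hist1h2ae from -0.032 to 0.29 and Hist1h2ao from -0.049 to 0.21. The cause of these changes was not tested.

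With a library left out, the summed linker difference ran from 0.82 to 0.99, the core difference from 0.15 to 0.20 (both log2) and the linker share difference from 10.0 to 12.1 percentage points. Leaving out members with over 50% shared stretches, or Hist1h1e, was added after seeing the data and gave linker differences of 0.92 and 0.92 and core differences of 0.18 and 0.17. The labels do not say whether libraries with the same replicate number belong together. Their deviations from the group means correlated at 0.00174, -0.153 and -0.0766 for replicates 1 to 3. With 3 libraries per group these values cannot decide it. In the fit with the replicate block Hist1h1c had a log2 fold change of 0.92 and an edgeR adjusted p of 0.0426, and the paired differences of the sums were 0.92 for linker and 0.17 for core genes. Depth limits the 30 untested members, with at most 16 reads in a library.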
